A study of Rattus norvegicus with 12 samples.

Results

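The laminin and integrin genes described here are the 41 genes, of 14217 with a single symbol in the platform annotation, whose symbol names a laminin chain, an integrin subunit or a gene starting with the same letters, a nidogen, dystroglycan, Frem2 or Fras1. Each gene was read from its probe set with the highest mean signal over all 12 arrays. Recombined tissue (n = 2) was made by joining UBs that had formed in vitro and not branched with MM and culturing them for 6 days. These letters stand for the ureteric bud and the metanephric mesenchyme. The intact rat kidneys came from 3 ages: embryonic day 13 (3 arrays, E13), embryonic day 18 (4 arrays, E18) and week 4 of postnatal life (3 arrays, Wk4). The labels give no strain or sex, and do not say whether the replicates came from separate animals or cultures, so a p-value here reflects only sample-to-sample spread, technical spread included. The design asked whether the recombined tissue follows normal kidney development, with a 3-fold difference as its measure.

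Laminins are trimers of an alpha, a beta and a gamma chain that form the first network of a basement membrane, to which nidogens tie collagen IV. Integrins are receptors of an alpha and a beta subunit, and those that bind laminin, collagen or RGD-containing ligands anchor epithelial and mesenchymal cells to that matrix. In the developing mouse kidney, the integrin of Itga8 and Itgb1 on the mesenchyme binds nephronectin from the ureteric bud and is needed for the bud to grow out, while the tubules and glomeruli exchange laminin chains as they mature.

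Below, a level is the deposited probe set signal on a linear scale, given per array or as mean ± SD. Differences ± SE were taken after adding 271 to each signal and converting to log2, which draws in the differences of dim genes. Called genes had a limma adjusted p under 0.05 together with a 3-fold or larger change. The words rose and fell are kept for called genes. Of the 41 members 37 passed the filter on low signal, and Itgam, Itgad, Itgbl1 and Fras1 did not. Itga11 and Itgax passed only through recombined arrays, Lama3 only through Wk4 arrays, and Itgb6 only through E18 and Wk4 arrays. These genes therefore had to differ between groups. Their p-values against the groups below the filter are no separate support, and the counts over members are a description. Npnt and Frem1, also named by the rule, had no probe set with that symbol here. The array medians lay between 799 and 1020. Residuals split the embryonic arrays into a set of E13 replicate 1 with E18 replicates 1 to 3 and a set of E13 replicates 2 and 3 with E18 replicate 4. The sets follow the sign of each array's weight in the leading component. Residuals cancel within a stage, so each stage had to split. The weights were 0.6 for E13 replicate 1 and -0.3 for replicates 2 and 3. At E18 they were 0.14 to 0.25 for replicates 1 to 3 and -0.59 for replicate 4. The recombined arrays also differed from each other: the summed signal of 13 leukocyte markers was 269888 on replicate 1 and 150442 on replicate 2, against 8233 to 12475 at E13, 22917 to 28946 at E18 and 46844 to 53538 at Wk4. Of these markers Lyz2 alone read 5821.7 to 8811.5 at E18 and 26263 to 29663 at Wk4. It was the 1 marker of the 13 called higher at Wk4 than at E18. In these bulk samples, fewer cells of a type and less RNA per cell cannot be told apart. Proximal tubule markers summed to 1781 to 3721 in recombined tissue, against 1425 to 1976 at E13, 26612 to 37110 at E18 and 509686 to 588104 at Wk4.

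In recombined tissue Itgal, Itgb2, Itgb3, Itga11 and Itgax were each called higher against E13, against E18 and against Wk4, comparisons that share the 2 recombined arrays. Over all 22599 probe sets tested, 1.51% met this condition. Itga11 and Itgax passed the filter only because they were high in recombined tissue, so nothing is read from a count of 5 against that share. Against E13, 6 of the 37 members rose, these 5 and Lamc1, and 0 fell, where 3.95% of all probe sets were called higher and 0.912% lower. Without E13 replicate 3 or recombined replicate 2, Lamc1 was at 1.5 or 1.33 and lost its call, and without recombined replicate 1 Itgb3 did, at 1.57. Against E18, the same 5 rose and Lama1 fell, where 2.73% of probe sets were called higher and 1.67% lower; without recombined replicate 1, Lama1 was at -1.57 and lost its call. Against Wk4, 7 rose (the same 5, Lama4 and Lamc1) and Itga6 and Itgb6 fell, with 7.88% of probe sets called higher and 7.32% lower. Of the same 5, Itgal lost its call against E13, E18 and Wk4 with 4 times the pseudocount, the value added to each signal. Under that setting Itgb3 lost its call against E13 and E18, and Itgax against Wk4. With each array centred on its median, Itgb3 lost its call against E13 and Itgal against Wk4. Itga11 and Itgb2 lost no call under these settings. At an adjusted p under 0.05 of any size, 16 members were higher and 2 lower in recombined tissue than at E13, against 15.9% and 15.2% of all probe sets.

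At E18 against E13, Itgb6, Lama1 and Lamc1 rose and 0 fell, where the same call took in 1.93% of probe sets as higher and 0.407% as lower. The count became 5 without E13 replicate 1, with Dag1 and Itga3 added, and 2 without E13 replicate 3 or E18 replicate 2, with Lamc1 lost. At an adjusted p under 0.05 of any size, 15 members were higher and Itgb3bp was lower at E18, against 12.7% and 7.03% of all probe sets. At Wk4 against E18, Itgb6 rose and Itga9, Itgb3bp, Lama1, Lama4 and Lamc1 fell, where 5.76% of probe sets were called higher and 5.43% lower. At Wk4 against E13, Itga3, Itga6, Itga7 and Itgb6 rose and Itgb3bp fell, where the same call took in 9.39% of probe sets as higher and 8.46% as lower. The median difference of the members was 0.59 for recombined tissue over E13, 0.11 over E18 and 0.21 over Wk4, and 0.38 for E18 over E13, -0.10 for Wk4 over E18 and 0.64 for Wk4 over E13. The medians of all probe sets in the same order were 0.00, 0.00, 0.19, -0.02, -0.12 and -0.11.

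**Figure D1:**
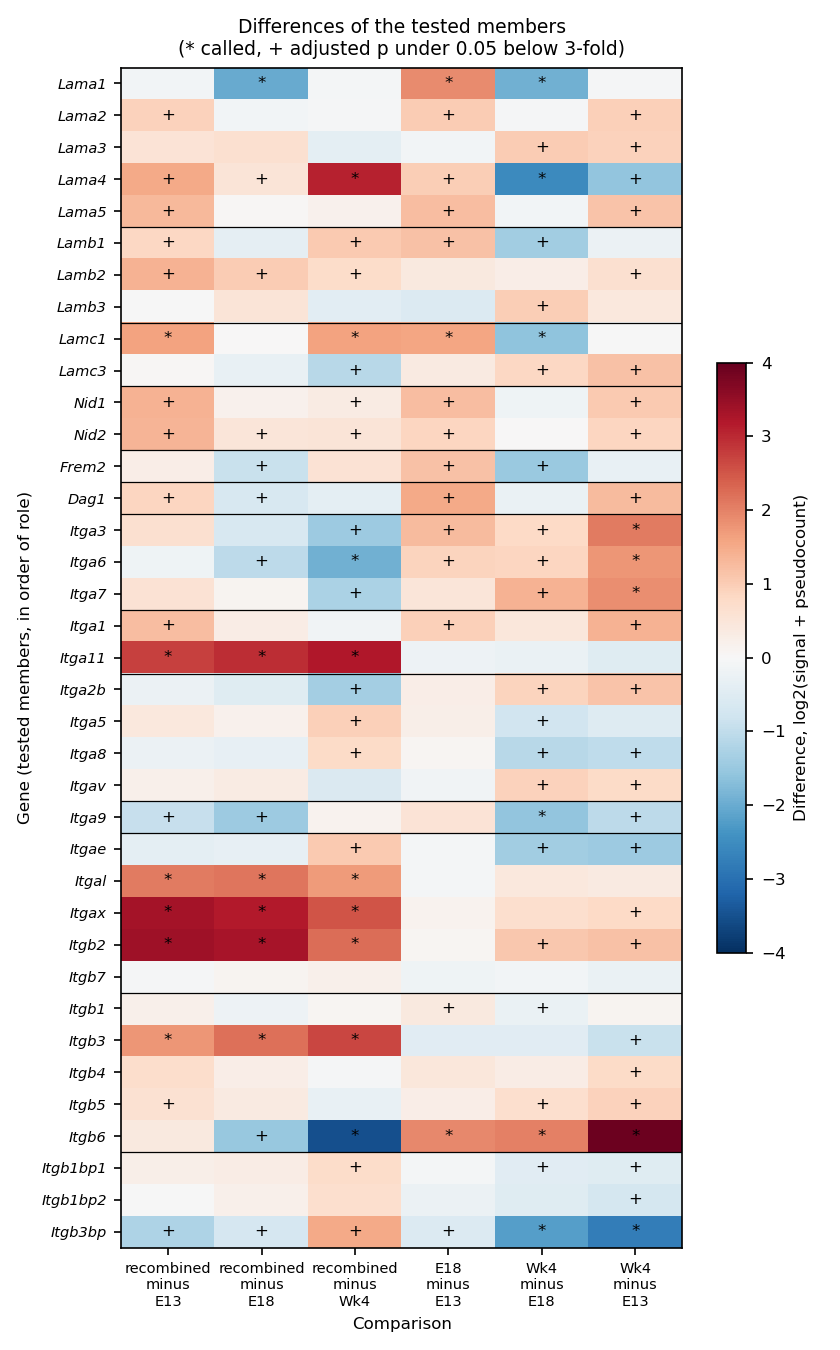
Differences of the 37 tested members (rows, in order of role, with lines between roles) in the 6 comparisons (columns), coloured by the log2 difference, red for higher in the group named before "minus". Stars mark called genes and plus signs those with an adjusted p under 0.05 below 3-fold; Itga11, Itgal, Itgax, Itgb2 and Itgb3 carry a star in all 3 recombined columns.

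The chains Lama1, Lamb1 and Lamc1 form the trimer of early epithelial basement membranes, and Lamc1 is shared by most laminins. Lama1 read 1049 and 2157 in recombined tissue, against 2092, 1676 and 1329 at E13, 6289, 6610, 7565 and 7308 at E18, and 1620, 1579 and 1645 at Wk4. Only the E18 arrays were high, and they overlapped with no other group. Lama1 rose at E18, by 1.89 ± 0.19 over E13 (limma adjusted p = 5.73e-06), and fell at Wk4, with a difference of -1.93 ± 0.19 from E18 (adjusted p = 6.93e-07). Recombined tissue lay below E18, at -2.01 ± 0.21 (adjusted p = 9.72e-06), or -1.57 without recombined replicate 1, which was no longer called, while its difference from E13 was -0.12 and from Wk4 -0.08.

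Lamc1 was at 19233 and 28297 in recombined tissue, against 8215, 7892 and 6458 at E13, 22104, 27125, 23234 and 20570 at E18, and 8416, 6928 and 6951 at Wk4. Recombined and E18 arrays overlapped and were high, and E13 and Wk4 arrays were low. The differences all lay near the 3-fold mark: 1.61 ± 0.17 for recombined tissue over E13 (adjusted p = 9.18e-06), 1.62 ± 0.17 over Wk4 (adjusted p = 1.88e-06), 1.59 ± 0.14 for E18 over E13 (adjusted p = 2.12e-06) and -1.61 ± 0.14 for Wk4 over E18 (adjusted p = 2.71e-07). Each of these 4 calls was lost when 1 of several single arrays was left out, with values from 1.33 to 1.58 in size, although each adjusted p stayed under 0.05. With the set of embryonic arrays, itself taken from these data, as a covariate, the E18 difference was 1.51 and Lamc1 was not called.

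Lamb1 was highest at E18, with smaller differences. Its level was 21396 ± 4442 in recombined tissue (SD, n = 2), against 11924 ± 758 at E13 (SD, n = 3), 27022 ± 654 at E18 (SD, n = 4) and 10201 ± 1794 at Wk4 (SD, n = 3). The difference of E18 from E13 was 1.16 ± 0.12 (adjusted p = 1.01e-05), that of Wk4 from E18 -1.40 ± 0.12 (adjusted p = 2.46e-07) and that of recombined tissue from E13 0.82 ± 0.15 (adjusted p = 0.000774). All were below 3-fold. Above Wk4, recombined tissue lay by 1.05 ± 0.15 (adjusted p = 3.22e-05). Against E18, recombined tissue was called lower for Lama1, while the differences of Lamb1 (-0.35) and Lamc1 (0.01) did not pass the test.

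The promoters of these 3 genes are shown because the genes moved together between E13 and E18 and apart in recombined tissue. They are the 250 bases before the annotated start in RefSeq (build GRCr8), 5′ to 3′, with the GC box GGGCGG, or CCGCCC on the other strand, in capitals. The windows are chr9:115139298-115139547 (plus strand) for Lama1, chr6:53562846-53563095 (plus strand) for Lamb1 and chr13:68051987-68052236 (minus strand) for Lamc1.
Lama1: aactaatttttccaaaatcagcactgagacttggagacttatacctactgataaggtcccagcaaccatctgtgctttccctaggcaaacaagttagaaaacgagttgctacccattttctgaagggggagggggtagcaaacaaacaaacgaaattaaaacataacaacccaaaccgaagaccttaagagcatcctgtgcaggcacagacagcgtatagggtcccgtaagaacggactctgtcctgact
Lamb1: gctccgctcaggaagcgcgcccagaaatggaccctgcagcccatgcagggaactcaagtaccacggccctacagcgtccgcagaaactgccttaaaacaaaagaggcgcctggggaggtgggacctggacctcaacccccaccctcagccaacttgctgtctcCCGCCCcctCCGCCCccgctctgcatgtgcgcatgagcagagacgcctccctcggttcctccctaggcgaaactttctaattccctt
Lamc1: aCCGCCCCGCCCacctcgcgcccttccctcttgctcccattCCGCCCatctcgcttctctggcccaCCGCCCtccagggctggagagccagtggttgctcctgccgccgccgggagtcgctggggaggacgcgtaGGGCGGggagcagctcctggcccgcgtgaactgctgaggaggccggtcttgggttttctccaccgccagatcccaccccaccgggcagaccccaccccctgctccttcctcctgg
The window of Lama1 held 0 matches, that of Lamb1 held 2 and that of Lamc1 held 5, of which a pair at its far end overlap by 1 base. Of all 33469 promoters in the table, 30.5% held the motif in the same 250 bases, as did 14 of the 31 members with an entry. A match describes these letters and no more.

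Lama4, the chain of vascular and mesenchymal basement membranes, had the largest log2 difference of the laminin chains. Its signal was 13313 and 14157 in recombined tissue, against 5210, 4626 and 4179 at E13, 8612, 10389, 8963 and 9737 at E18, and 1890, 1218 and 1114 at Wk4. The 4 groups did not overlap, with recombined tissue highest and Wk4 lowest. Lama4 was higher in recombined tissue than at Wk4 by 3.09 ± 0.18 (adjusted p = 3.17e-09) and fell at Wk4, with a difference of -2.56 ± 0.15 from E18 (adjusted p = 3.15e-09). With the mean of its probe sets the Wk4 difference from E18 was -1.58, below 3-fold, and the dimmer probe set gave -0.60 ± 0.25 (adjusted p = 0.0572). Recombined tissue was also above E13 by 1.51 ± 0.18 and above E18 by 0.53 ± 0.17, both below 3-fold (adjusted p = 2.27e-05 and 0.0295). The summed signal of 8 endothelial markers was 4942 and 12789 on the recombined arrays, against 27971 to 37921 at E13, 36384 to 42693 at E18 and 59559 to 67604 at Wk4. Smooth muscle and pericyte markers summed to 192593 and 123225 in recombined tissue, against 21303 to 40921 at E13, 26070 to 50498 at E18 and 16983 to 22265 at Wk4, with 4 of 7 called higher than at E13. Their part in the level of Lama4 was not tested.

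Lama5 and Lamb2 encode the alpha and beta chains of the mature glomerular basement membrane. Lama5 averaged 5657 ± 618 in recombined tissue, against 2158 ± 522 at E13, 5526 ± 1405 at E18 and 5009 ± 539 at Wk4. Recombined tissue was above E13 by 1.31 ± 0.23 (adjusted p = 0.000717), as were E18 (1.24 ± 0.20, adjusted p = 0.000376) and Wk4 (1.14 ± 0.21, adjusted p = 0.000267), each below 3-fold. Lamb2 was at 14292 and 9732 in recombined tissue, against 5129, 4235 and 3825 at E13, 5374, 6473, 5732 and 5550 at E18, and 6661, 6165 and 8225 at Wk4. Both recombined arrays stood above every kidney array, by 1.38 ± 0.18 over E13 (adjusted p = 5.31e-05), 1.0 ± 0.17 over E18 (adjusted p = 0.000543) and 0.74 ± 0.18 over Wk4 (adjusted p = 0.00311). Without recombined replicate 2, Lamb2 was called against E13. The 5 measured podocyte markers summed to 21434 and 22709 in recombined tissue. The kidney arrays gave 25108 to 36819 at E13, 31494 to 36954 at E18 and 17833 to 20344 at Wk4. Wt1 made up 11563 and 13911 of the recombined sums, and read 2324 to 2476 at Wk4. Nphs1 read 16.4 and 360 in recombined tissue, against 1284 to 2027 at Wk4, and Podxl 971 and 1810, against 5242 to 6512. Of the 5 markers, 2 were called lower than at E18, and against Wk4 2 were called lower and 1 higher. The part of the podocyte markers in the levels of Lama5 and Lamb2 was not tested.

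The remaining laminin chains were called in none of the 6 comparisons at 3-fold. Lama2, the chain of muscle and nerve laminin, read 1482 and 3165 in recombined tissue, and its group means were 1058 at E13, 2355 at E18 and 2262 at Wk4. It was above E13 by 0.92 ± 0.26 in recombined tissue (adjusted p = 0.0161) and by 1.01 ± 0.22 at E18 (adjusted p = 0.00452). Skeletal muscle markers summed to 7835 and 5951 in recombined tissue, against 998 to 2606 on the kidney arrays, with 2 of 5 called higher than at E13. Schwann and neural markers summed to 9986 and 4729, against 2160 to 4019. Compared with E13, 0 of 4 were called and 2 were higher at an adjusted p under 0.05. Of the 4, 1 was called higher than at E18 and 2 than at Wk4. Their part in the level of Lama2 was not tested. Lamc3 averaged 1270 ± 899 in recombined tissue, against 1088 ± 246 at E13, 1491 ± 477 at E18 and 2810 ± 799 at Wk4, with recombined tissue below Wk4, at -1.10 ± 0.35 (adjusted p = 0.015). Lama3 and Lamb3, chains of the laminin under stratified epithelia, were dim. Lama3 averaged 511 in recombined tissue, 269 at E13, 237 at E18 and 781 at Wk4, and Lamb3 averaged 508, 521, 280 and 814 in the same order. Both were higher at Wk4 than at E18, Lama3 by 1.03 ± 0.28 (adjusted p = 0.00545) and Lamb3 by 0.97 ± 0.24 (adjusted p = 0.00376). Since Lama3 passed the filter only through Wk4 arrays, its p-value is no separate support.

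On their brightest probe sets the nidogens were higher in recombined tissue and in older kidneys than at E13. Nid1 was at 38341 and 35429 in recombined tissue, against 12991, 13998 and 15087 at E13, 31084, 34839, 29353 and 37238 at E18, and 27131, 31429 and 28862 at Wk4. Nid2 was at 20410 and 19027 in recombined tissue, against 7358, 8265 and 7184 at E13, 13884, 14976, 13198 and 13657 at E18, and 15226, 13615 and 12856 at Wk4. For both genes the E13 arrays were the lowest on these probe sets and overlapped with no other group. Recombined tissue was above E13 by 1.38 ± 0.12 for Nid1 (adjusted p = 1.41e-06) and 1.35 ± 0.12 for Nid2 (adjusted p = 1.23e-06), and E18 by 1.22 ± 0.10 (adjusted p = 8.76e-07) and 0.85 ± 0.10 (adjusted p = 2.05e-05), all below 3-fold. Nid2 was also above E18 in recombined tissue, by 0.49 ± 0.11 (adjusted p = 0.00386). The dimmer probe set of Nid1 gave 0.39 ± 0.22 for recombined tissue over E13 (adjusted p = 0.211). For E18 over E13 it gave 0.52 ± 0.19 (adjusted p = 0.0663), and neither passed. Its difference for Wk4 over E13 was 0.62 ± 0.20 (adjusted p = 0.0147).

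**Figure D2:**
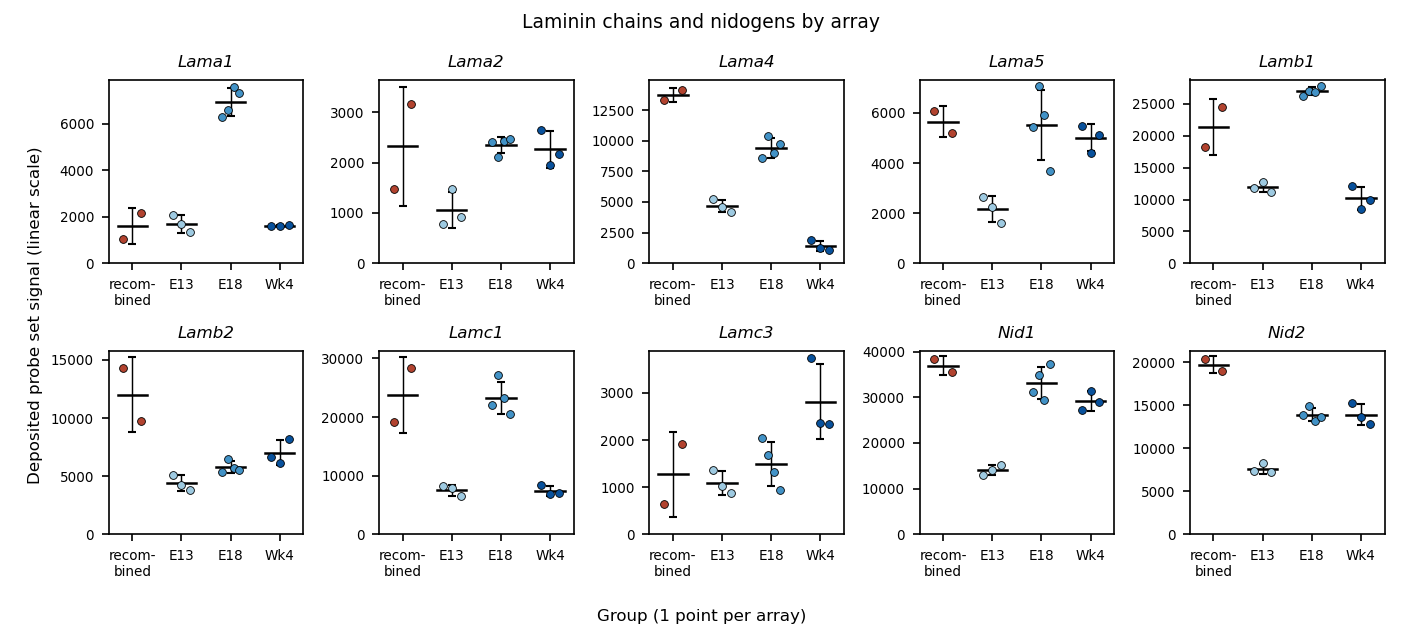
Signal of 8 laminin chains and both nidogens on each array (vertical axes, linear), with recombined tissue at the left and then E13, E18 and Wk4; points are arrays, long bars the mean and whiskers the SD. Lama1 is high only at E18, Lama4 runs from 13313 and 14157 in recombined tissue down to 1114 at Wk4, and Lamb2 is highest in recombined tissue.

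Dag1 encodes dystroglycan, a laminin receptor that is not an integrin. Its signal was 10548 and 10542 in recombined tissue, against 6620, 5452 and 4995 at E13, 18141, 19500, 17099 and 12822 at E18, and 13975, 14413 and 12974 at Wk4. E18 replicate 4 was the lowest of its stage. Dag1 was higher at E18 than at E13 by 1.52 ± 0.14 (adjusted p = 2.13e-06), just under 3-fold, and was called without E13 replicate 1 or without E18 replicate 4. Its other bright probe set gave 0.85 ± 0.16 (adjusted p = 0.00171) for E18 over E13. The 2 dimmer ones gave 0.15 ± 0.36 and 0.43 ± 0.30, which did not pass. In recombined tissue the brightest probe set was above E13 by 0.87 ± 0.16 (adjusted p = 0.00105) and below E18, at -0.65 ± 0.16 (adjusted p = 0.00618). However, the other bright probe set gave 0.07 ± 0.18 over E18 (adjusted p = 0.811) and the 2 dimmer ones 0.21 ± 0.41 and 0.28 ± 0.34, none of which passed. Frem2 and Fras1 encode proteins of the Fraser complex, which joins epithelium to mesenchyme and without which kidneys fail to form in mice. Frem2 was at 1030 and 484 in recombined tissue, against 442, 659 and 557 at E13, 1577, 1621, 1592 and 1459 at E18, and 602, 386 and 234 at Wk4. Its E18 arrays overlapped with no other group. The difference of Frem2 was 1.16 ± 0.22 for E18 over E13 (adjusted p = 0.00179), -1.47 ± 0.22 for Wk4 over E18 (adjusted p = 5.64e-05) and -0.89 ± 0.25 for recombined tissue over E18 (adjusted p = 0.0171). Fras1 lay between 93.5 and 446 on all arrays and was not tested.

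Among the laminin receptors, Itga3 and Itga6 pair with Itgb1, and Itga6 also with Itgb4 in hemidesmosomes. Itga6 was at 4166 and 4578 in recombined tissue, against 4626, 4758 and 5424 at E13, 9508, 7914, 9259 and 10663 at E18, and 18224, 15872 and 17444 at Wk4. On this brightest probe set of Itga6 the 3 stages formed separate steps, and the recombined arrays lay just under the E13 arrays. Itga6 rose at Wk4, by 1.75 ± 0.12 over E13 (adjusted p = 1.56e-08), and recombined tissue was lower than Wk4, at -1.91 ± 0.14 (adjusted p = 3.61e-08) and below E18, at -1.04 ± 0.13 (adjusted p = 4.21e-05). Its 3 other probe sets differed less, and the mean of its probe sets gave 1.07 and -1.02 for these 2 calls, below 3-fold. One of the dimmer probe sets showed 0.09 ± 0.25 for Wk4 over E13. For recombined tissue over E18 the 3 gave 0.29 ± 0.27, 0.08 ± 0.23 and -0.48 ± 0.39, and none passed the test. Nor did any of the 3 pass for E18 over E13 (-0.18 ± 0.24, 0.28 ± 0.21 and 0.38 ± 0.35).

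Itga3, which podocytes need, was at 1879 and 2771 in recombined tissue, against 2543, 1018 and 925 at E13, 3770, 4805, 3830 and 2648 at E18, and 5612, 7559 and 6965 at Wk4. E13 replicate 1 was more than 2 times the other E13 arrays, and E18 replicate 4 the lowest of E18, the arrays that also stood apart in the residuals. Itga3 rose by 2.09 ± 0.29 at Wk4 over E13 (adjusted p = 1.67e-05). In recombined tissue it was below Wk4, at -1.44 ± 0.32 (adjusted p = 0.00159) and 0.65 above E13, which did not pass. Itga7, the laminin receptor of muscle, averaged 484 ± 201 in recombined tissue, against 256 ± 241 at E13, 431 ± 168 at E18 and 1524 ± 172 at Wk4. It rose by 1.86 ± 0.30 at Wk4 over E13 (adjusted p = 7.84e-05), and by 1.36, below 3-fold, with the mean of its probe sets.

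The shared partner Itgb1 changed little. Its signal was 44860 and 32011 in recombined tissue, 33242 ± 2056 at E13, 43482 ± 1701 at E18 and 36050 ± 1955 at Wk4. On this probe set the widest difference was 0.39 ± 0.11 for E18 over E13 (adjusted p = 0.0182). The other probe set of Itgb1 gave 0.43 ± 0.17 there, which did not pass (adjusted p = 0.0986). For Wk4 over E18 it gave -0.52 ± 0.17 (adjusted p = 0.0185). No comparison with recombined tissue passed the test on either probe set. Itgb4 averaged 870 ± 367 in recombined tissue, against 420 ± 121 at E13, 670 ± 172 at E18 and 913 ± 314 at Wk4, with a difference of 0.76 ± 0.26 for Wk4 over E13 (adjusted p = 0.0197).

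Itga8, the mesenchymal receptor for nephronectin, was at 3018 and 3341 in recombined tissue, against 5044, 3878 and 2882 at E13, 4524, 4132, 3911 and 3707 at E18, and 1623, 1530 and 2116 at Wk4. Recombined and E13 arrays overlapped, and the Wk4 arrays were the lowest. Recombined tissue did not pass the test against E13 (-0.25) or E18 (-0.33), and was above Wk4 by 0.78 ± 0.20 (adjusted p = 0.00467). Wk4 was below E18, at -1.11 ± 0.17 (adjusted p = 5.92e-05) and below E13, at -1.03 ± 0.18 (adjusted p = 0.000165), less than 3-fold. The other probe set of Itga8 gave -0.56 ± 0.25 for Wk4 over E18, which did not pass (adjusted p = 0.0708), and 0.95 ± 0.30 for recombined tissue over Wk4 (adjusted p = 0.0151). The 5 measured nephron progenitor and early mesenchyme markers, Itga8 among them, summed to 15357 to 27215 in recombined tissue, against 30635 to 48868 at E13, 33504 to 39824 at E18 and 10756 to 14869 at Wk4. Of these, Eya1 (-1.67 ± 0.23) and Meox1 (-1.83 ± 0.22) were called lower in recombined tissue than at E13, and Pax2 (-1.72 ± 0.39) lower than at E18. Eya1 and Meox1 were called higher than at Wk4.

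Itgb6, an epithelial subunit that pairs with Itgav and activates latent TGF-beta, had the largest stage difference of any tested member. It was at 43.7 and 257 in recombined tissue, against 39.4, 12.8 and 73.7 at E13, 851, 880, 864 and 1007 at E18, and 4609, 4233 and 4422 at Wk4. The stages were separate, and the recombined arrays stayed below every E18 array. Itgb6 rose by 1.91 ± 0.19 at E18 over E13 (adjusted p = 5.10e-06), by 2.0 ± 0.19 at Wk4 over E18 (adjusted p = 4.61e-07) and by 3.91 ± 0.20 at Wk4 over E13 (adjusted p = 5.12e-10). It was lower in recombined tissue than at Wk4, at -3.52 ± 0.23 (adjusted p = 9.69e-09). Below E18 it lay at -1.52 ± 0.21 (adjusted p = 0.000111), short of 3-fold, and it was called there without recombined replicate 2. Its E13 and recombined signals were under the 40th percentile of their arrays (503 to 671 over the arrays), so these differences depend on the pseudocount. With 4 times the pseudocount, the E18 over E13 difference was 0.82 and the Wk4 over E18 difference 1.47.

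Itgav, the alpha partner of several beta subunits, averaged 6017 ± 3325 in recombined tissue, against 4841 ± 308 at E13, 4375 ± 443 at E18 and 8472 ± 1294 at Wk4. Wk4 was above E18 by 0.91 ± 0.21 (adjusted p = 0.00173). Itgb5 averaged 6039 ± 213 in recombined tissue, against 3843 ± 515 at E13, 4676 ± 788 at E18 and 7511 ± 944 at Wk4, with 0.62 ± 0.17 for recombined tissue over E13 (adjusted p = 0.0114). Itga5, the fibronectin receptor subunit, averaged 2409 ± 294 in recombined tissue, against 1909 ± 1151 at E13, 2188 ± 715 at E18 and 1124 ± 185 at Wk4. Its E13 arrays read 3235, 1323 and 1168, so replicate 1 stood above the other E13 arrays. Recombined tissue was above Wk4 by 0.95 ± 0.35 (adjusted p = 0.0352). Itga2b, the platelet subunit, averaged 661 ± 79.5 in recombined tissue, against 834 ± 73.4 at E13, 1064 ± 303 at E18 and 2155 ± 343 at Wk4. It was higher at Wk4 than at E13 by 1.13 ± 0.20 (adjusted p = 0.000189), and recombined tissue was below Wk4, at -1.37 ± 0.22 (adjusted p = 0.000121), both below 3-fold.

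**Figure D3:**
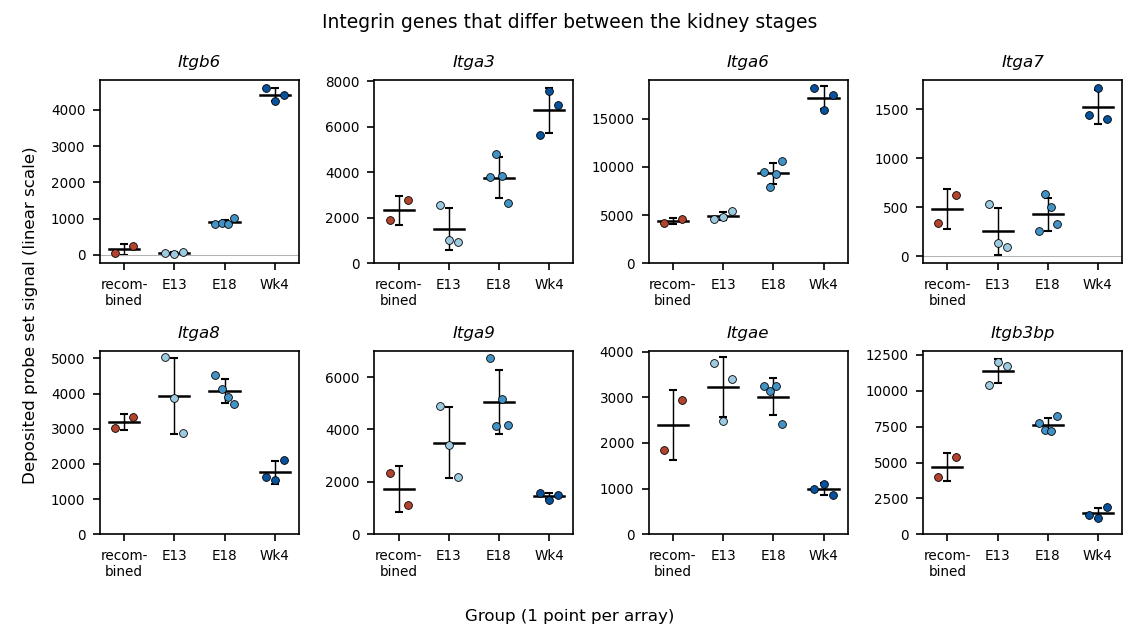
Signal of 7 integrin genes and Itgb3bp on each array (vertical axes, linear), with recombined tissue at the left and then E13, E18 and Wk4; points are arrays, long bars the mean and whiskers the SD. Itgb6, Itga3, Itga6 and Itga7 are highest at Wk4, where Itgb6 reads 4233 to 4609, and Itga8, Itga9, Itgae and Itgb3bp are lower at Wk4 than at E13.

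Itgb3 and Itga11 were highest in recombined tissue. Itgb3, the beta partner of Itgav and Itga2b, was at 4648 and 3479 in recombined tissue, against 1037, 741 and 1244 at E13, 715, 717, 678 and 529 at E18, and 445, 456 and 336 at Wk4. Itgb3 was higher in recombined tissue than at E13 by 1.77 ± 0.22 (adjusted p = 3.30e-05), than at E18 by 2.21 ± 0.21 (adjusted p = 2.88e-06) and than at Wk4 by 2.66 ± 0.22 (adjusted p = 1.36e-07). Of the 5 measured platelet markers, Gp9 and Gp5 stayed between 10.0 and 191 on all arrays. Treml1 read 776 and 920 in recombined tissue, against 534 to 795 at E13, 207 to 1326 at E18 and 933 to 1116 at Wk4, and Ppbp read 97.4 and 597, against 248.8 to 387, 92.4 to 493 and 321 to 733 at these stages. Pf4, which macrophages also express, read 13493 and 7703 in recombined tissue, against 3184 to 5737 at E13, 3183 to 4755 at E18 and 1190 to 1341 at Wk4. Their part in the level of Itgb3 was not tested.

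Itga11, a receptor for fibrillar collagen on fibroblasts, was at 3769 and 2534 in recombined tissue, against 163, 327 and 221 at E13, 215, 224, 108 and 126 at E18, and 82.6, 156 and 49.3 at Wk4. It lay under the 40th percentile on every kidney array. The differences were 2.74 ± 0.27 over E13 (adjusted p = 3.75e-06), 2.95 ± 0.25 over E18 (adjusted p = 1.30e-06) and 3.21 ± 0.27 over Wk4 (adjusted p = 1.53e-07). Both Itga11 and Itgb3 stood higher on recombined replicate 1, the array with the higher smooth muscle and leukocyte marker sums, whose part was not tested.

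Itga1, a receptor for collagen IV, did not share this pattern. It averaged 8791 ± 440 in recombined tissue, against 3664 ± 946 at E13, 7212 ± 1280 at E18 and 10134 ± 3096 at Wk4. Recombined tissue was above E13 by 1.23 ± 0.25 (adjusted p = 0.00199), as was E18 by 0.94 ± 0.21 (adjusted p = 0.00572), and it did not pass the test against E18 or Wk4. Itga9, whose integrin binds tenascin, was at 2350 and 1115 in recombined tissue, against 4894, 3420 and 2179 at E13, 6721, 4141, 5168 and 4154 at E18, and 1564, 1319 and 1506 at Wk4. Recombined tissue was below E18, at -1.45 ± 0.29 (adjusted p = 0.00182), and below E13, at -0.92 ± 0.31 (adjusted p = 0.0347), short of 3-fold. Itga9 fell at Wk4, with a difference of -1.59 ± 0.26 from E18 (adjusted p = 9.96e-05), at the edge of 3-fold. Without E18 replicate 1, E18 replicate 3 or Wk4 replicate 2 it was at -1.45, -1.57 or -1.53 and not called. The dimmer probe set of Itga9 gave 0.77 ± 0.28 for the same comparison (adjusted p = 0.03), the opposite sign, so the fall rests on the brighter probe set.

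The leukocyte integrins Itgal, Itgam and Itgax pair with Itgb2 on white blood cells. Itgb2 was at 12483 and 4715 in recombined tissue, against 476, 434 and 563 at E13, 625, 501, 578 and 460 at E18, and 1768, 1106 and 1510 at Wk4. Itgax was at 4145 and 1916 in recombined tissue, against 22.8, 20.5 and 79.5 at E13, 21.1, 18.6, 132 and 135 at E18, and 273, 120 and 481 at Wk4. Itgal was at 5390 and 3546 in recombined tissue, against 975, 803 and 746 at E13, 1276, 617, 743 and 621 at E18, and 1064, 1273 and 1129 at Wk4. For all 3 genes both recombined arrays lay above every kidney array, with replicate 1 the higher.

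Itgb2 was higher in recombined tissue than at E13 by 3.39 ± 0.31 (adjusted p = 1.87e-06), than at E18 by 3.30 ± 0.29 (adjusted p = 1.57e-06) and than at Wk4 by 2.22 ± 0.31 (adjusted p = 2.47e-05). The same differences were 3.32 ± 0.35, 3.18 ± 0.33 and 2.52 ± 0.35 for Itgax (adjusted p = 7.54e-06, 7.64e-06 and 2.68e-05). For Itgal they were 2.07 ± 0.25, 2.14 ± 0.24 and 1.71 ± 0.25 (adjusted p = 2.71e-05, 1.35e-05 and 4.53e-05). Without recombined replicate 1, the differences over Wk4 were 1.54 for Itgb2 and 1.42 for Itgal, and neither was called. Itgam was at 1397 and 197 in recombined tissue, against 45.7 to 83.0 on all kidney arrays. It passed the 40th percentile on 1 array only and was not tested. With no filter its difference over E13 was 1.37 ± 0.35 (adjusted p = 0.012), below 3-fold.

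Of the 13 leukocyte markers, 12 were called higher in recombined tissue than at E13, 12 than at E18 and 11 than at Wk4. The common leukocyte antigen gene Ptprc was at 8275 and 4696 in recombined tissue, against 168 to 388 at E13, 239 to 598 at E18 and 715 to 1116 at Wk4. The macrophage gene Cd68 was at 31168 and 11694, against 332 to 742, 635 to 935 and 549 to 1195 in the same order of stages. No marker of this list was at 0 in any group. Their part in the levels of the leukocyte integrins was not tested.

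**Figure D4:**
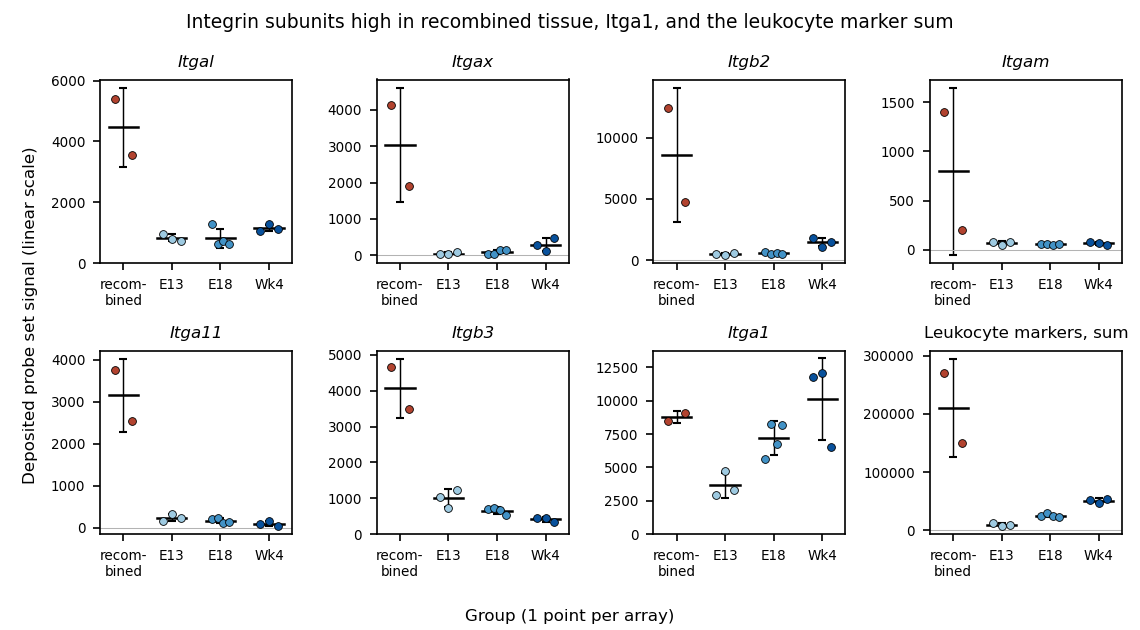
Signal of the leukocyte integrins Itgal, Itgax, Itgb2 and Itgam, of Itga11, Itgb3 and Itga1, and the summed signal of 13 leukocyte markers on each array (vertical axes, linear), with recombined tissue at the left and then E13, E18 and Wk4; points are arrays, long bars the mean and whiskers the SD. Recombined replicate 1 is the higher recombined array for all of them but Itga1, which is not highest in recombined tissue.

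The promoters of Itgam and Itgax are shown because these genes lie near each other on the same chromosome and were both highest in recombined tissue. They are again the 250 bases before the RefSeq start (GRCr8), with GAGGAA, the PU box bound by the myeloid factor PU.1, or TTCCTC on the other strand, in capitals. The window of Itgam is chr1:192089342-192089591 (plus strand) and that of Itgax is chr1:192149799-192150048 (plus strand).
Itgam: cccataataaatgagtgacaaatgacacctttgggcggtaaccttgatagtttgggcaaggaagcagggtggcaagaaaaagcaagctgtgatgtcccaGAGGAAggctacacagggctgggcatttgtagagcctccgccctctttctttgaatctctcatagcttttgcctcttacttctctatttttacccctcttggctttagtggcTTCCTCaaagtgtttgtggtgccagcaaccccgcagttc
Itgax: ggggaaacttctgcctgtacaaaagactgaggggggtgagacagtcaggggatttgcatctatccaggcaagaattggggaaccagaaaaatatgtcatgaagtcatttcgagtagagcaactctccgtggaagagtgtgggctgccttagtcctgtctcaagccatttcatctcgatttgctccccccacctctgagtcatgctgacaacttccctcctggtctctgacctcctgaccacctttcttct
The Itgam window held 2 matches, starting 151 and 39 bases before the gene start, and the Itgax window held 0. The motif was in 23.3% of all 33469 windows and in 15 of the 31 members with an entry. It was in 2 of the 4 leukocyte integrins with an entry, Itgam and Itgae, and also in windows such as those of Lamc1 and Nid1. Here too, a match describes only the letters. Itgb2 and Itgal had no entry.

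The leukocyte group also holds Itgae, Itgb7 and Itgad. Itgae, whose integrin binds E-cadherin, was at 1853 and 2941 in recombined tissue, against 3217 ± 657 at E13, 3009 ± 406 at E18 and 988 ± 127 at Wk4. It was below E18 at Wk4, at -1.38 ± 0.18 (adjusted p = 1.41e-05), short of 3-fold. Its partner Itgb7 averaged 568 ± 196 in recombined tissue, against 610 ± 210 at E13, 498 ± 84.0 at E18 and 480 ± 280 at Wk4, and passed no test. Itgad was at 509 and 572 in recombined tissue, against 86.5 to 393 on the kidney arrays, and did not pass the filter on low signal. With no filter its difference was 0.62 ± 0.29 over E13 (adjusted p = 0.162), 0.91 ± 0.28 over E18 (adjusted p = 0.0325) and 0.86 ± 0.29 over Wk4 (adjusted p = 0.0315), below 3-fold.

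The symbols Itgb3bp, Itgb1bp1, Itgb1bp2 and Itgbl1 start like integrin subunits without being any. Itgb3bp encodes a centromere protein first found as a partner of the Itgb3 tail. It was at 4004 and 5352 in recombined tissue, against 10404, 12009 and 11756 at E13, 7781, 7268, 7209 and 8211 at E18, and 1343, 1161 and 1869 at Wk4. The recombined arrays lay between E18 and Wk4, apart from both. Itgb3bp fell at Wk4, with a difference of -2.21 ± 0.15 from E18 (adjusted p = 1.08e-08) and -2.77 ± 0.16 from E13 (adjusted p = 1.28e-09). In recombined tissue it was below E13, at -1.25 ± 0.17 (adjusted p = 9.53e-05) and above Wk4 by 1.52 ± 0.17 (adjusted p = 3.96e-06), below 3-fold. Itgb1bp1, which binds the Itgb1 tail, averaged 8089 in recombined tissue, 6817 at E13, 6475 at E18 and 4717 at Wk4. The muscle gene Itgb1bp2 averaged 558, 581, 470 and 270 in the same order, and Itgbl1, which did not pass the filter, 497, 81.9, 102 and 137. With no filter, Itgbl1 was higher in recombined tissue by 1.14 ± 0.25 over E13 (adjusted p = 0.00449), 1.05 ± 0.24 over E18 (adjusted p = 0.00606) and 0.96 ± 0.25 over Wk4 (adjusted p = 0.00706), below 3-fold.

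Other genes of the same pathways were read from lists, whose counts stand against the shares of all probe sets called higher and lower: 3.95% and 0.912% for recombined tissue against E13, 2.73% and 1.67% against E18, 7.88% and 7.32% against Wk4, and 1.93% and 0.407% for E18 against E13, 5.76% and 5.43% for Wk4 against E18 and 9.39% and 8.46% for Wk4 against E13. Of 14 tested basement membrane proteins, 4 rose in recombined tissue against E13, with Smoc2 (2.55 ± 0.32), Tinagl1 (2.20 ± 0.27) and Sparc (1.91 ± 0.28) ahead, and 0 fell. Against E18, Smoc2 (3.17 ± 0.30) rose and Tinag (-2.13 ± 0.20), a tubular basement membrane protein, fell. Against Wk4, 3 rose and 2 fell, with Tinag at -5.80 ± 0.21, Smoc2 at 1.98 ± 0.32 and the collagen IV chain Col4a4 at -1.95 ± 0.28. At E18 over E13, Tinag (2.41 ± 0.17) and Tinagl1 (2.27 ± 0.23) rose and 0 fell. At Wk4 over E18, Tinag (3.67 ± 0.17) and Col4a4 (1.60 ± 0.24) rose and Hmcn1 (-1.96 ± 0.17) fell. At Wk4 over E13, Tinag (6.09 ± 0.19), Tinagl1 (3.07 ± 0.24) and Col4a4 rose and Hmcn1 (-1.76 ± 0.18) fell. The median of this list was 0.77 for recombined tissue over E13, -0.04 over E18 and 0.70 over Wk4, and 0.87 for E18 over E13, -0.20 for Wk4 over E18 and 0.73 for Wk4 over E13.

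Of 14 tested integrin ligands, 5 rose in recombined tissue against E13 and 0 fell, with a median of 1.49. Spp1, which encodes the RGD ligand osteopontin, differed by 6.34 ± 0.19, Tnc, which encodes the ligand tenascin, by 4.78 ± 0.32 and Icam1, a ligand of the Itgb2 integrins, by 1.94 ± 0.30. Against E18, 4 rose, with Spp1 (3.09 ± 0.18), Postn (2.19 ± 0.22) and Tnc (1.84 ± 0.31) ahead. Against Wk4, 5 rose, led by Postn (6.37 ± 0.23), Fbln1 (4.58 ± 0.23) and Tnc (4.49 ± 0.32). At E18 over E13, Spp1 (3.25 ± 0.16), Tnc (2.94 ± 0.27) and Fbln5 (2.38 ± 0.14) rose and 0 fell. At Wk4 over E18, Spp1 rose (2.23 ± 0.16) and 4 fell, with Postn (-4.17 ± 0.20), Fbln1 (-3.37 ± 0.19) and Tnc (-2.65 ± 0.27) ahead. At Wk4 over E13, Spp1 (5.49 ± 0.17) and Fbln5 rose, and Postn (-4.70 ± 0.21) and Fbln1 (-3.10 ± 0.20) fell. The other medians of this list were 0.96 for recombined tissue over E18, 0.73 over Wk4, 0.54 for E18 over E13, -0.87 for Wk4 over E18 and -0.27 for Wk4 over E13.

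Of 22 tested integrin adaptors and focal adhesion proteins, 2 rose in recombined tissue against E13 and 0 fell. These were Fermt3 (2.42 ± 0.36), the kindlin of blood cells, and the tetraspanin gene Cd9 (1.92 ± 0.25). Against E18, Fermt3 alone rose (2.24 ± 0.34). Against Wk4, Flna (2.72 ± 0.20) and Fermt3 (2.34 ± 0.36) rose, and Lims2 (-2.69 ± 0.24) and Tns1 (-2.46 ± 0.17) fell. At E18 over E13, Cd9 rose (1.69 ± 0.21). At Wk4 over E18, Lims2 (3.65 ± 0.20) and Tns1 (3.35 ± 0.14) rose and Flna (-1.81 ± 0.16) fell. At Wk4 over E13, Tns1 (4.00 ± 0.15), Lims2 (3.78 ± 0.21) and Cd9 (1.98 ± 0.22) rose. The medians of this list were 0.65, 0.33 and 0.34 for recombined tissue over E13, E18 and Wk4. They were 0.20 for E18 over E13, -0.01 for Wk4 over E18 and 0.03 for Wk4 over E13. The counts for recombined tissue against Wk4 and for Wk4 over E18 were near the shares of all probe sets. The other counts rest on few genes, so nothing is read from them about the list. Of 8 tested genes of the dystrophin-glycoprotein complex, which links dystroglycan to the cytoskeleton, 1 was called in the 6 comparisons, Sgce, higher in recombined tissue than at Wk4 (1.70 ± 0.17).

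Where a gene had other probe sets, they were dimmer and their differences were mostly smaller. The other probe set of Lamc1 gave 1.18 ± 0.22 for recombined tissue over E13 (adjusted p = 0.000834) and 1.45 ± 0.18 for E18 over E13 (adjusted p = 4.52e-05). That of Lama4 gave 0.92 ± 0.30 for recombined tissue over Wk4 (adjusted p = 0.0182), against 3.09 for the brighter one, and that of Nid1 gave 0.39 ± 0.22 for recombined tissue over E13 (adjusted p = 0.211). Both other probe sets of Itgav passed the test for recombined tissue over E18 (0.71 ± 0.19 and 0.91 ± 0.20), which the brightest did not (0.33). The other tested probe set of Itgb3bp gave -2.47 for Wk4 over E18.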

How the data were processed

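Total RNA was labelled as biotinylated cRNA by the Affymetrix protocol, per the labels' protocols. The intensity of each probe set was deposited on a linear scale. The submitters' processing notes name GCOS, with no version or settings in the sources used here. Leaving out 2% of the values at either end, every array averaged 2500.6 to 2500.9, so the arrays share a common scale that would hide a shift in total RNA. Detection calls were not used.

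The log2 of each signal plus 271, the 25th percentile of all values, was analysed for 31042 probe sets, without 57 control probe sets. The log2 array medians spanned 0.27 and no further normalization was applied. The 22599 probe sets whose signal passed the 40th percentile of at least 2 arrays entered 1 limma 3.58.1 fit (R 4.3.3) over all 12 arrays, with lmFit, eBayes with an intensity trend, two-sided tests and Benjamini-Hochberg adjustment. The steps were tested on simulated arrays.

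The platform annotation gave 1 symbol for 20826 probe sets, several for 436 and none for 9780, and all 41 members matched the current rat annotation by gene ID. The members and lists were chosen with earlier results of these data known. Per comparison, up to 15 called members whose arrays did not overlap were named with full statistics, other members served as examples, and of each pathway list the 3 called genes with the largest difference were named. Promoters are from RefSeq (GRCr8), which held 31 members. Alternatives changed the pseudocount, normalization, filter, variance trend and call rule, left out arrays, used the replicate number as a block, or averaged probe sets within a gene.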

Additional observations from a re-analysis of the deposited data

Results flagged for a closer look

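Among the 41 members, 1 had an E18 array far from the other 3, judged by its gap relative to the range of the group. Itgae read 2406 on E18 replicate 4, against 3131 to 3252 on the other E18 arrays, a gap of 0.858 of the group's range. Chance marks about 1 in 20 groups by this measure. E18 replicate 4 is also the array that stood apart from its stage in the residuals of all probe sets. The levels of Itgae at E13 (3217 ± 657) and Wk4 (988 ± 127) lie on either side of that reading.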

How the results depend on the processing

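The calls rest on 2 to 4 arrays a group, and dim genes on the pseudocount. Of 35 named differences under their alternatives (773 values), 720 kept their call, 53 lost it and 0 changed sign. Of these differences, 21 lost a call at least once. Many alternatives could not change a difference, only its p-value. These were the filters, no variance trend, only the arrays compared, and leaving out an array of a group not compared. The 720 therefore overstate how stable the calls are. With 4 times the pseudocount, the members called were 3 for recombined tissue against E13, 0 for E18 against E13 and 2 for Wk4 against E18, in place of 6, 3 and 6. The 3 calls lost at E18 against E13 in that limma fit were Itgb6 at 0.82, Lama1 at 1.53 and Lamc1 at 1.5. With no pseudocount they were 11 for Wk4 against E18 and 8 for Wk4 against E13, in place of 6 and 5. With probe sets averaged within a gene, both of these were 3. With adjusted p under 0.05 and at least 2-fold, the members called were 13 for recombined tissue against E13, 16 against Wk4, 10 for E18 against E13, 13 for Wk4 against E18 and 16 for Wk4 against E13. Leaving out single arrays gave 5 to 6 members called for recombined tissue against E13, 6 to 7 against E18 and 8 to 10 against Wk4, 2 to 5 for E18 against E13 (5 without E13 replicate 1), 4 to 7 for Wk4 against E18 and 5 to 7 for Wk4 against E13. The cause of these changes was not tested beyond the construction of each alternative. With the replicate number as a block, the counts were 5, 7 and 8 for recombined tissue against E13, E18 and Wk4, 4 for E18 against E13, 6 for Wk4 against E18 and 5 for Wk4 against E13, within 1.5 times the main counts. Lamc1 lost its call under the block at 1.55 over E13 and 1.56 over Wk4. The labels do not say whether the numbers pair the arrays. Of 15 same-numbered pairs across groups, 1 had deviations that correlated above 0.1 (range -0.17 to 0.31). Of 38 pairs with different numbers, 5 did (range -0.6 to 0.41). Deviations in groups of 2 to 4 arrays depend on each other, so these correlations cannot decide the question.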
